A study of Mus musculus with 2 samples.

Results

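The cells described here were chosen by a marker rule on single-cell RNA counts as the type 1 conventional dendritic cells (cDC1) of B16-F10 melanomas. A cell barcode entered the set when it held at least 300 detected genes, at most 10% mitochondrial counts, at least 2 unique molecular identifiers (UMIs, counted RNA molecules) of Xcr1 and Clec9a together, and none of the T cell gene Cd3e or the B cell gene Cd79a. The rule took in 337 of 22490 barcodes that passed the filter on genes and mitochondrial counts, and these 337 are called members below. The 2 genes chose the members, so their own levels are given as a description only.

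cDC1 are the dendritic cells that take up dying cells and present the antigens in them on MHC class I to CD8 T cells, which is called cross-presentation. Xcr1 is the receptor for the chemokine Xcl1, and Clec9a, also called DNGR-1, recognises actin exposed on dead cells. Batf3 and Irf8 encode transcription factors on which the lineage depends, Wdfy4 is needed for cross-presentation of cell-associated antigen, and Naaa encodes a lipid hydrolase that marks the lineage. Trex1 is an exonuclease that degrades DNA in the cytosol, where undegraded DNA is sensed by cGAS and STING, a route to type I interferon.

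The study asked how induced loss of Trex1 shapes the response of leukocytes to a tumour. Both groups were male mice aged 8 to 12 weeks that carried 1 copy of the tamoxifen-inducible Cre R26CreERT2, given 1000 B16-F10 melanoma cells with Matrigel into the skin of both legs, 1 mg of tamoxifen on 3 days from day 5, and studied on day 14. The iKO group was Trex1 fl/fl-R26CreERT2-ki/wt, with both Trex1 alleles floxed, and the control group was Trex1 wt/fl-R26CreERT2-ki/wt, so the controls also received Cre and tamoxifen and can lose 1 allele. The Rosa26 locus is active in most tissues, so deletion was not aimed at dendritic cells, and the injected tumour cells carried no floxed allele by these labels. Living CD45-positive cells of 4 hashtagged samples per genotype were sequenced as 1 droplet pool per genotype, so genotype and pool are the same split and cannot be told apart in any comparison here. The labels do not say that each hashtagged sample is 1 mouse, and p-values measure the spread between these samples.

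The iKO group gave 61, 74, 25 and 31 members from its samples 1 to 4, and the control group gave 28, 22, 52 and 44. Summed per sample they held 509646 to 1776713 UMIs. The median UMI count of a member was 22785 to 29313 for iKO and 22814 to 25931.5 for control. No member barcode was shared between 2 samples, and the sample's own hashtag was the highest in all members but 1, in iKO sample 3. Trex1 itself gave 0 UMIs in the members of every sample, which allows up to 1.69 to 5.89 CPM (the usual unit of counts scaled to a common library total), and 2 UMIs in all 22490 barcodes. Atrip overlaps Trex1 on the same strand, so the deletion could not be checked in these cells.

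The members were not all alike when read by markers that the rule did not use (the stacked counts by kind of member). Of the 337, 193 held both Xcr1 and Clec9a, 125 held Clec9a alone and 19 held Xcr1 alone. A group of 177 held both genes and fell under none of the marker kinds described next, and these are called strict members. A further 72 held 1 of the genes and also fell under none of those kinds. Macrophage genes (at least 20 UMIs of C1qa, C1qb, C1qc and Apoe) stood out in 49 members, plasmacytoid dendritic cell (pDC) genes (at least 10 UMIs of Siglech, Ccr9, Cox6a2 and Klk1) in 31, and the migration genes Ccr7 and Fscn1 in 8. The kinds were drawn after the counts were seen. Markers of other cells, such as neutrophils, were not screened. Strict members still held 262 to 769 CPM of 12 summed macrophage markers in iKO and 410 to 1050 in control. For 7 neutrophil markers they held 54.8 to 66.2 and 144 to 997 CPM.

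**Figure D1:**
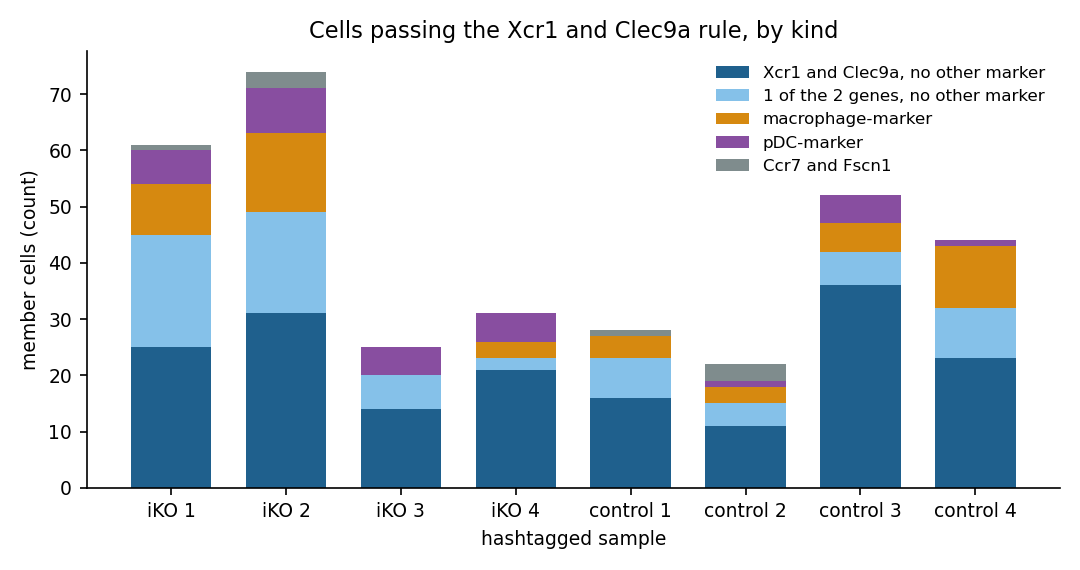
Number of member cells (vertical axis) in each of the 8 hashtagged samples, stacked by kind of member. The pDC-marker kind holds 24 members in the iKO samples and 7 in the control samples, while the strict kind holds 91 and 86.

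Wdfy4, Naaa and Itgae, all genes of cDC1, were at their highest in the strict members, while some other cDC1 genes were not. Wdfy4 stood at 476 CPM in the summed strict members, 186 in those with 1 gene, 145 in macrophage-marker members, 37.9 in pDC-marker members and 19.3 in the Ccr7 and Fscn1 members. Naaa followed the same order with 1408, 977, 703, 14.2 and 6.4 CPM. Itgae, which encodes CD103 and marks peripheral cDC1, was at 261 CPM in strict members and 0 in pDC-marker members. Irf8, which pDC also make, was at 1635 CPM in strict members and 3148 in pDC-marker members, and Batf3 was at 199 CPM in strict members, 2.37 in pDC-marker members and 212 in the 8 Ccr7 and Fscn1 members. The pDC-marker members had 1872 CPM of Siglech, a pDC surface lectin, against 0.97 in strict members, and 1 of the 31 held Xcr1. Their lowest member had 17 UMIs of the 4 pDC genes, while no other member had more than 3. C1qa, a complement subunit made by macrophages, was at 2326 CPM in the macrophage-marker members and 9.3 in the strict ones. By Wdfy4, Naaa and Itgae the markers match the label cDC1 in the strict members and go against it in the pDC-marker members. The latter are called here by their leading genes. Siglech and C1qa were among the genes that drew the kinds, so their levels had to differ between kinds and are a description only. Clec9a is also made by pDC, and it was at 192 CPM in the pDC-marker members and 193 CPM in the strict members.

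**Figure D2:**
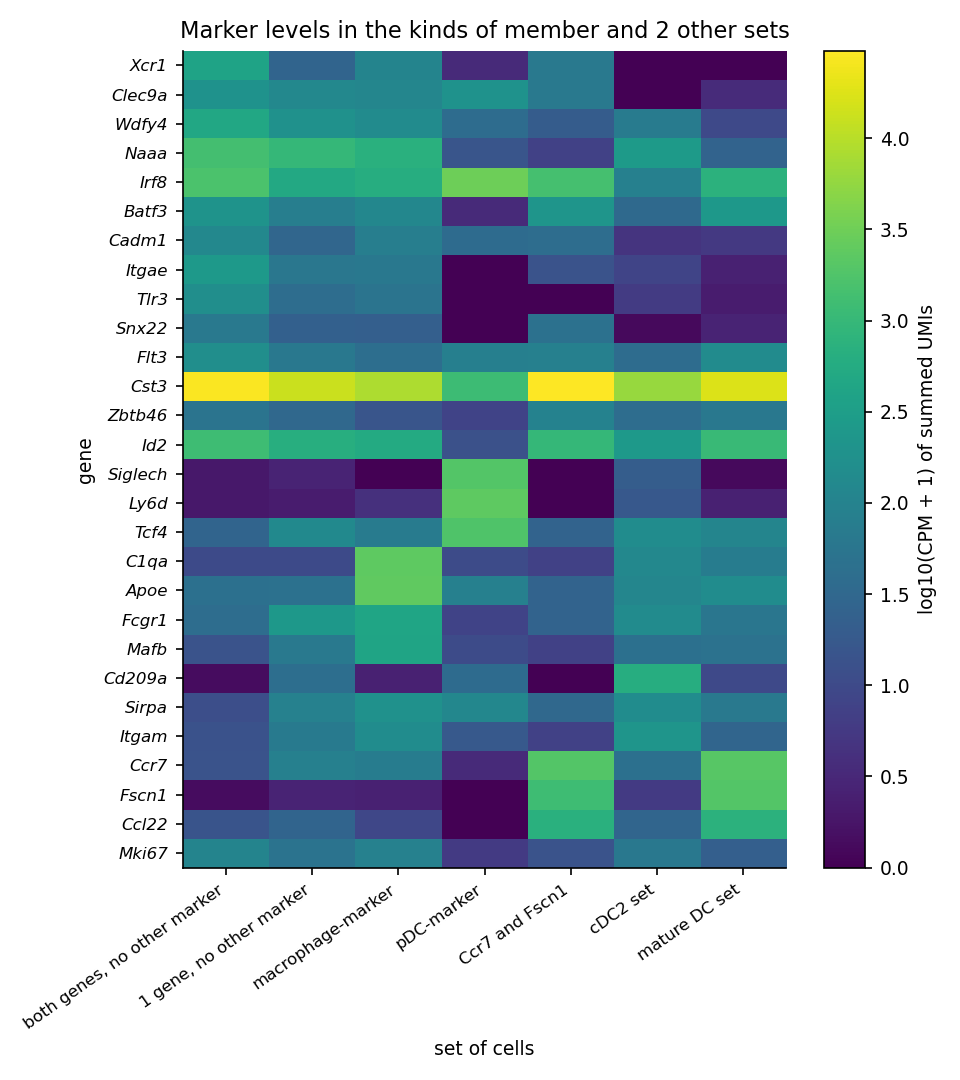
Level of 28 marker genes (rows, log10 of CPM + 1 of summed UMIs) in the 5 kinds of member, in a set of type 2 conventional dendritic cells (cDC2) and in a set of mature dendritic cells (columns). Wdfy4, Naaa and Itgae are highest in the strict members, Siglech in the pDC-marker members and C1qa and Apoe in the macrophage-marker members. Siglech, C1qa and Apoe were among the genes that drew those kinds.

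Levels climbed across the threshold of 2 UMIs rather than jumping there. Just outside it, 279 barcodes with 1 UMI of Xcr1 or Clec9a had 50.7 CPM of Wdfy4 and 415 CPM of Naaa. Just inside, the 84 members with 2 UMIs had 73.9 and 506 CPM, and the 171 with at least 6 had 473 and 1410 CPM. The cDC2 set, at 70.8 and 276 CPM, was thus close to the 2-UMI members for Wdfy4. The test of genotype below was run on all members and on the 193 with both genes, and the comparisons with other sets of cells use all members.

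The share of members among the sorted leukocytes did not differ between genotypes beyond the spread of the samples. Members made up 1.58%, 1.25%, 1.92% and 1.26% of the filtered barcodes of iKO 1 to 4 and 1.41%, 1.28%, 1.88% and 1.76% of those of control 1 to 4, and the groups overlapped. The exact (Clopper-Pearson) 95% intervals of single samples lay between 0.807% and 2.82%. The means were 1.50% ± 0.315 (SD, n = 4) and 1.58% ± 0.281 (SD, n = 4), with p = 0.714 in a two-sided exact permutation test, whose smallest possible p here is 0.0286. Members with both genes made up 0.815% ± 0.213 and 1.01% ± 0.347 of barcodes (exact p = 0.429). As a share of the members and the cDC2 and mature sets together, members came to 37.3% ± 15.5 in iKO and 27.1% ± 5.44 in control (exact p = 0.314), a difference in the other direction. The filtered barcodes were deeper in iKO samples, with median counts of 13048 to 14677 UMIs against 6557 to 11931 in control samples, and after thinning every barcode to 3000 UMIs the shares were 0.580% and 0.597% (exact p = 0.857).

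The pDC-marker kind was the part of the set that differed in share. It held 9.84%, 10.8%, 20.0% and 16.1% of members in iKO 1 to 4 and 0%, 4.55%, 9.62% and 2.27% in control 1 to 4, and the groups did not overlap. Its mean was 14.2% ± 4.76 (SD, n = 4) in iKO and 4.11% ± 4.11 (SD, n = 4) in control, with exact permutation p = 0.0286, the smallest this design can give. Since this kind was drawn after the counts were seen and is 1 of 5 kinds, the p is unadjusted. Its members sat at the threshold, with a median of 2 UMIs of the rule genes, and 30 of the 31 held Clec9a alone. Their median depth was 13550.5 UMIs in iKO and 11371 in control. In the other filtered barcodes pDC markers overlapped, at 202 to 312 CPM in iKO and 115 to 420 in control. The share of this kind was not taken after thinning, and the part of depth was not tested. Strict members made up 51.7% and 57.2% of members (exact p = 0.514) and macrophage-marker members 10.8% and 15.6% (exact p = 0.486).

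The iKO genotype went with higher interferon-response genes in the members. UMIs were summed over members per sample and tested with edgeR's quasi-likelihood test, with Benjamini-Hochberg adjustment over all 7236 genes and a threshold of 0.05. The test called 26 genes (0.359% of those tested), 18 higher (0.249%) and 8 lower (0.111%) in iKO. Without regard to the test, the 4 iKO samples lay apart from the 4 control samples for 8.11% of genes (4.35% higher and 3.76% lower). The iKO libraries also held more pDC-marker RNA, 729 to 1162 CPM summed over 9 genes against 96.0 to 601, and a sum over members cannot tell a level per cell from the number of cells of a kind.

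Ifi27l2a, an interferon-induced mitochondrial protein gene, was the most abundant of the risers. It stood at 2692, 2943, 1192 and 1078 CPM in the iKO samples (1 to 4) and at 603, 411, 529 and 412 CPM in control samples 1 to 4. Every iKO sample was above every control sample, and the log2 fold change was 2.02 ± 0.31 (SE, edgeR adjusted p = 0.0343). Oas1a, an oligoadenylate synthetase that senses double-stranded RNA, read 69.0, 84.7, 51.0 and 20.4 CPM in iKO and 15.8, 11.9, 6.67 and 9.83 CPM in control, again without overlap, a log2 fold change of 2.48 ± 0.42 (SE, edgeR adjusted p = 0.0381). Usp18, which removes the Isg15 tag from proteins and damps interferon signalling, rose by 2.19 ± 0.40 on the log2 scale (edgeR adjusted p = 0.0433). Bst2, also called tetherin, rose by 1.41 ± 0.24 and Slfn5, of the Schlafen family, by 1.33 ± 0.22 (both edgeR adjusted p = 0.0381). The other risers described here were the DNA-binding PYHIN gene Ifi203 (1.46 log2), the nuclear body gene Pml (1.27) and Phf11a (1.01), whose family members are similar in sequence and may share reads.

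Several of the risers, Bst2, Pml, Pltp, Lair1, Lag3, Cyb561a3, Rac2, Ighm, BC147527 and Rnase6, had their highest summed level in the pDC-marker members in both genotypes. Bst2 was at 4689 CPM in these members in iKO and 4824 in control, against 453 and 154 in strict members. Of the 9 pDC markers, 1 (Lag3) was called higher in all members, with a median log2 fold change of 1.43. Pltp, a phospholipid transfer protein, was at 151, 141, 126 and 126 CPM in iKO 1 to 4 and 18.7, 17.8, 48.9 and 24.6 CPM in control samples, a log2 fold change of 2.21 ± 0.26 (SE, edgeR adjusted p = 0.0062). In the summed pDC-marker members it stood at 1163 CPM in iKO and 740.2 in control, in strict members at 13.2 and 2.54, and in members with 1 gene at 136 and 36.0. Lair1, an inhibitory collagen receptor, rose by 1.25 ± 0.13 on the log2 scale (edgeR adjusted p = 0.0062), and Lag3, an inhibitory receptor that pDC also carry, by 2.30 ± 0.30 (edgeR adjusted p = 0.0149). Without the 31 pDC-marker members, Pltp gave 1.79 (edgeR adjusted p = 0.187), Lair1 0.65 (0.597) and the ferric reductase gene Cyb561a3 0.42 (0.591), from 1.16 with them. Bst2 gave 1.17 (edgeR adjusted p = 0.117), Pml 1.16 (0.0637), Oas1a 2.51 (0.0576), Usp18 2.22 (0.0618), Slfn5 1.37 (0.0518) and Ifi27l2a 2.06 (0.0518), all short of the threshold. Only Rps10 was called without those members. In members with both genes Lair1 gave 1.05 (edgeR adjusted p = 0.477). The other genes called higher in all members were BC147527 (1.53 log2), Gzmb (2.42), which encodes granzyme B, the GTPase gene Rac2 (0.96), the immunoglobulin gene Ighm (0.86), Gm10076 (0.73) and the ribonuclease gene Rnase6 (0.66).

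Among the 8 falls, Apoe, the lipid carrier of macrophages, had the largest change. It was at 56.9, 151, 48.1 and 85.3 CPM in iKO 1 to 4 and 1469.9, 399.5, 339 and 1036 CPM in control samples, a log2 fold change of -3.21 ± 0.50 (SE, edgeR adjusted p = 0.0343). The macrophage-marker members alone held 557 CPM of it in iKO against 4301 in control. Summed over 12 genes, macrophage markers held 816 to 3449 CPM of the members in iKO and 1725 to 5434 in control. Without macrophage-marker members Apoe gave -1.04 (edgeR adjusted p = 0.0852), with both genes -2.70 (0.108), and in strict members, which were chosen to hold few of these genes, -1.54 (0.0365). Cxcl2, a chemokine that draws neutrophils, read 30.7, 73.1, 62.3 and 37.3 CPM in iKO and 182, 89.0, 422 and 341 CPM in control (log2 fold change -2.37 ± 0.43, SE, edgeR adjusted p = 0.0433). The guanine exchange factor genes Dock5 (-1.43 log2) and Trio (-0.87) and the calcium channel gene Orai1 (-0.64) were lower too, as was Chsy3 (-2.41), a chondroitin synthase gene below 20 CPM.

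Rps10, a protein of the small ribosomal subunit, was lower in every iKO sample than in any control sample, and the pseudogene Rpl9-ps6 had a log2 fold change of -0.99. Rps10 stood at 939.9, 943, 1194 and 1156 CPM in iKO 1 to 4 and 1919.6, 1968, 2068 and 1976 CPM in control samples (log2 fold change -0.91 ± 0.11, SE, edgeR adjusted p = 0.0062). Its summed level was lower in iKO in each of the 5 kinds of member, such as 1128 against 2111 CPM in strict members and 867 against 1727 in pDC-marker members. In the cDC2 set it was also -0.91 ± 0.09 (SE, edgeR adjusted p = 0.00491). Ribosomal genes have many near-identical copies, so reads of these genes may be split among them.

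Markers of other cell types that the rule could let in were read in the same sums. T cell markers (9 genes) held 107 to 182 CPM in iKO and 47.7 to 78.3 CPM in control, and 1214 to 5512 and 664 to 3155 CPM in the other filtered barcodes, so they did not overlap in the members. The 7 neutrophil markers held 70.1 to 364 CPM in iKO and 161 to 1664 in control, the 12 cDC2 markers 342 to 488 and 318 to 659, and the 15 mature markers 466 to 1045 and 401 to 1028. B cell, NK and melanoma markers stayed below 25.9, 12.7 and 11.3 CPM in every sample, and the NK gene Ncr1 was at 0. The part of these cells in the calls was not tested.

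Leaving out 1 sample at a time moved the count of 26 calls to between 3 and 69. It was 3 without iKO 1, 9 without iKO 2, 69 without iKO 3, 57 without iKO 4, 14 without control 1, 8 without control 2 and 5 without control 4, and of the genes named from this test Pltp, Lair1 and Rps10 were called in all 8 fits. The call was lost in 6 of the 8 fits for Oas1a and Usp18 and in 5 for Ifi27l2a and Bst2, with edgeR adjusted p reaching 0.123, 0.132, 0.118 and 0.123. For Apoe it was lost without iKO 1 or control 4 and for Cxcl2 in 6 of the 8 fits, with edgeR adjusted p up to 0.123 and 0.149.

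The promoters of the risers are shown because several share a short sequence (motif) of the kind that interferon regulatory factors bind. The motif GAAA, NN (any 2 bases) and GAAA in a row, read on both strands, was present in the 250 bases before the start of 978 of 32851 promoters in the RefSeq table for GRCm38.p6, or 2.98%. The table was matched by gene symbol and is of another build than the counts. Of the 18 higher genes, 12 matched the table and 7 of these held the motif (58.3%), while 0 of 5 matched lower genes did; over all tested genes the share was 3.72%. Of the genes called higher in members with both Xcr1 and Clec9a, 84 matched and 19 held the motif (22.6%), as did 0 of 29 matched lower genes and 3.59% of all genes tested there. The 160 bases before the start, 5′ to 3′ on the gene's strand, are given for the first 4 such genes by fold change, with the motif in capitals.
Oas1a, chr5:120907526-120907685, minus strand: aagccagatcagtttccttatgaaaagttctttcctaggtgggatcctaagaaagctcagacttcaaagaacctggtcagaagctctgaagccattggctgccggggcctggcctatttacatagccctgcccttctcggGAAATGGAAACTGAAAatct
BC147527, chr13:120300232-120300391, plus strand: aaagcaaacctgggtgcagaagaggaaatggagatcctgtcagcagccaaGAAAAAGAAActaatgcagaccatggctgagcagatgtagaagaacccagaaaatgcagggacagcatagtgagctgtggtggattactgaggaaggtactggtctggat
Ifi203, chr1:173942493-173942652, minus strand: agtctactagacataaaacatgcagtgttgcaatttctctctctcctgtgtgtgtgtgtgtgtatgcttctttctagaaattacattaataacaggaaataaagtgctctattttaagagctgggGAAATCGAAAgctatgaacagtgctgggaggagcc
Bst2, chr8:71537473-71537632, minus strand: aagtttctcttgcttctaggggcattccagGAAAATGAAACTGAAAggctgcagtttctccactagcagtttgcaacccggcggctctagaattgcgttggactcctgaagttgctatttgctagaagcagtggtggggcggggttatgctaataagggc
Oas1a and Bst2 each held 2 overlapping matches, which start 20 and 14 bases before the start of Oas1a and 130 and 124 before that of Bst2. The single matches start 110 bases before BC147527 and 35 bases before Ifi203. Slfn5, Phf11a and Rnase6 also held the motif. Of the 160 bases before the start, 117 for Slfn5 and all 160 for Rnase6 overlap an annotated exon of the same gene. A match describes these letters and does not show that a factor binds there.

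In the members that held both Xcr1 and Clec9a, more interferon-response genes passed the test. These 193 members, 98 in iKO and 95 in control, gave 137 calls among 6084 genes (2.25%), 97 higher (1.59%) and 40 lower (0.657%). Of the 18 and 8 genes called in all members, 9 and 7 were called the same way here. The samples of the genotypes lay apart for 8.76% of genes (4.87% higher and 3.9% lower). Summed pDC markers held 83.2 to 204 CPM of these members in iKO and 66.6 to 114 in control. The set still included 14 macrophage-marker members, and summed macrophage markers held 505 to 2703 CPM in iKO and 410 to 4373 in control. The count was 49 without iKO 1, 78 without iKO 2, 82 without control 2, 70 without control 3 and 53 without control 4.

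Irf7, the transcription factor that amplifies type I interferon production, was at 512, 760.1, 379.7 and 196 CPM in the iKO samples (1 to 4) and at 62.4, 18.6, 56.9 and 8.90 CPM in control samples 1 to 4. No control sample reached the lowest iKO sample, and the log2 fold change was 3.61 ± 0.47 (SE, edgeR adjusted p = 0.00166). Isg15, a ubiquitin-like protein attached to others during the response, read 575, 991, 755 and 220.5 CPM in iKO and 69.1, 15.5, 99.1 and 17.8 CPM in control. Its log2 fold change was 3.53 ± 0.50 (SE, edgeR adjusted p = 0.00224), and it had a UMI in 91.8% of iKO and 42.1% of control members with both genes. Thinned to 3000 UMIs, those shares were 57.1% and 13.7%.

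Ifit3, which binds foreign RNA with its relatives, was close to absent in control. It read 54.0, 162, 35.5 and 14.4 CPM in iKO and 0, 0, 2.58 and 2.54 CPM in control, and 2 control samples had none. Its fitted log2 fold change of 5.15 ± 0.88 (SE, edgeR adjusted p = 0.00863) rests on few control counts. Ifit3 had a UMI in 30.6% of iKO and 5.26% of control members with both genes, and the top 5 iKO members held 68.7% of its iKO UMIs. Isg20, an RNA exonuclease, rose from 2.23, 3.11, 6.89 and 5.09 CPM in control to 95.8, 195, 96.0 and 31.7 CPM in iKO (4.36 ± 0.56 log2, SE, edgeR adjusted p = 0.00166). In all members these genes had higher values in some controls, and the same changes missed the threshold: Isg15 gave 1.94 ± 0.57 (edgeR adjusted p = 0.15), Irf7 2.73 ± 0.54 (0.0559) and Ifit3 2.28 ± 0.75 (0.187).

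**Figure D3:**
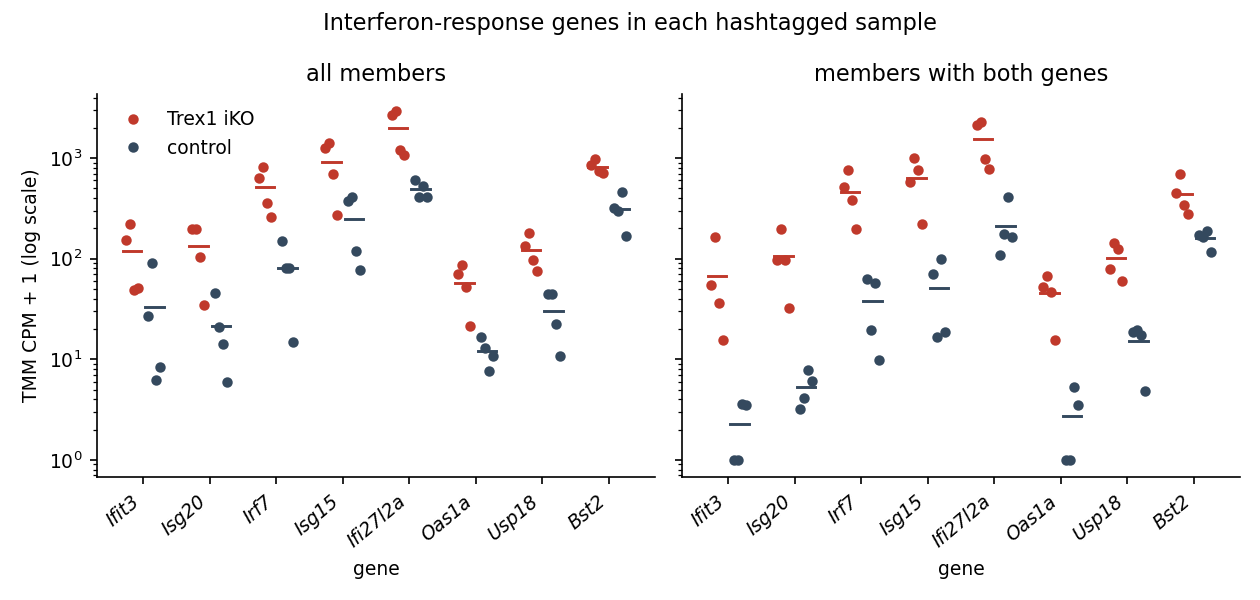
TMM-scaled CPM + 1 (vertical log axis) of 8 interferon-response genes in each of the 4 iKO and 4 control samples, over all members (left) and members with both genes (right); each point is a sample and each line a group mean. With both genes required the iKO and control points of all 8 genes are apart, and Ifit3 and Oas1a are at 0 CPM in 2 control samples.

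Other large rises in these members included genes on the type I interferon list (Ifit2, Ifi44, Rsad2 and Usp18) and genes outside it (Ly6a, Ube2l6, Ifi213, Ms4a4c and Ly6c2). Ly6a, which encodes the surface protein Sca-1, went from 22.3, 9.32, 46.5 and 28.0 CPM in control to 812, 1287, 194 and 121 CPM in iKO (4.32 ± 0.67 log2, SE). Ifit2, Ifi44, Rsad2 (viperin), Usp18 and the ubiquitin-conjugating enzyme gene Ube2l6, which charges Isg15, rose by 4.30, 4.02, 2.98, 2.91 and 2.82 on the log2 scale. Ifi213, a PYHIN gene, and Ms4a4c rose by 3.36 and 3.77, and Ifi47, an interferon-inducible GTPase gene, by 3.55. Ly6c2, a monocyte surface marker that interferon also raises, rose by 3.59 and had UMIs in 75.5% of iKO and 28.4% of control members of this set (38.8% and 7.37% after thinning). All these were past edgeR's adjusted threshold. Leaving out control 2 or control 4 ended the calls for Rsad2 and Ly6c2, as did iKO 2 for Rsad2 and iKO 1 for Ly6c2, with adjusted p up to 0.0750 and 0.0694. Without control 3 the log2 fold change of Rsad2 was 5.24.

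The falls in the members with both genes included S100a9 and S100a8, the calprotectin genes of neutrophils. S100a9 read 29.5, 32.9, 29.2 and 27.4 CPM in iKO and 91.4, 99.4, 427 and 90.3 CPM in control (-2.63 ± 0.48 log2, SE, edgeR adjusted p = 0.0118). Summed neutrophil markers outside the members held 777 to 7659 CPM of the other filtered barcodes in iKO and 5158 to 12900 in control, and within this set 54.8 to 69.0 and 145 to 878. Their part in the fall of S100a8 and S100a9 was not tested. Thbs1 (-3.62 log2), a matrix protein gene, Sult1a1 (-3.34), a sulfotransferase, the platelet factor gene Pf4 (-3.09) and the metallothionein gene Mt1 (-1.62) were lower as well. Adam19, a metalloprotease gene, read 23.3, 18.8, 33.4 and 33.1 CPM in iKO and 60.2, 71.4, 65.5 and 67.4 CPM in control, without overlap (-1.33 ± 0.22 log2, SE, edgeR adjusted p = 0.00685). Dapk1, a death-associated kinase gene, also fell (-1.75), with Mtss1 (-1.52). Of these falls, the call was lost in 6 of the 8 fits with 1 sample left out for Pf4, 5 for Mtss1, 4 for S100a8 and 2 for Sult1a1, while Thbs1 and S100a9 lost it without iKO 1 and Mt1 without control 4. The size moved too: Pf4 gave -1.57 without control 4 and -1.54 in strict members, and without control 3 S100a8 gave -1.43 and S100a9 -1.64. Pf4 was highest in control 4, at 235 CPM, where the summed macrophage markers of this set were also highest, at 4373 CPM. The part of macrophage-marker members in the fall of Pf4 was not tested.

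Gene lists describe where the changes lay, but they were chosen with earlier results of these data known. The shares called higher over all genes were 0.249% in all members and 1.59% in those with both genes. Of 42 tested genes of the type I interferon list, 5 were called higher in all members (Oas1a, Usp18, Ifi27l2a, Bst2 and Slfn5) and 0 lower, with a median log2 fold change of 1.47 beside -0.01 over all genes. In members with both genes 26 of 37 were called higher and 0 lower (median 1.58, all genes -0.01), and in strict members 24 of 34 (1.52), where 2.01% of all genes were called higher and 0.897% lower. The 5 calls in all members became 0 without iKO 1, iKO 2, control 2 or control 4, 3 without control 1 or control 3, 9 without iKO 3 and 13 without iKO 4. The type II interferon list, genes raised most by interferon gamma, had 0 of 18 called in all members (median 0.53) and 4 of 14 in members with both genes (median 1.43): Irgm1 (1.64 log2), Igtp (2.25), Ifi47 and Cxcl9.

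Part of the MHC class I presentation list, mostly genes of class I heavy chains, was higher in the members with both genes. Of 22 tested, 9 were called higher and 0 lower (median 0.50), against 0 of 22 in all members (median 0.41, 10 at unadjusted p under 0.05), while DESeq2 called 6 there. The edgeR fit of all members had 1070 of 7236 genes at an unadjusted p under 0.05. H2-K1, a classical class I heavy chain, read 1786, 1791, 1093 and 1036 CPM in iKO and 1030.3, 714, 809 and 817 CPM in control, groups that just failed to overlap (0.76 ± 0.18 log2, SE, edgeR adjusted p = 0.0467). The non-classical genes H2-Q7 (1.48 log2), H2-Q6 (2.04), H2-T22 (1.24), H2-Q4 (1.23) and H2-T23 (0.70) rose with it, and reads of these near-identical genes may be split among them. Tapasin (Tapbp, 0.57), its relative Tapbpl (0.86) and the immunoproteasome subunit gene Psmb9 (0.60) rose. B2m, the light chain, did not pass (0.38 ± 0.17 log2, edgeR adjusted p = 0.323), nor did the peptide transporter gene Tap1 (0.38 ± 0.14, 0.218) or the regulator Nlrc5 (0.11 ± 0.32, 0.918). No gene of 14 tested for MHC class II passed in either set, with medians of -0.08 in all members and -0.02 in members with both genes. Cd74, the invariant chain, was at 21044, 20651, 19951 and 21652 CPM in iKO and 23559, 21889, 20590.2 and 18883 CPM in control, which overlapped.

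**Figure D4:**
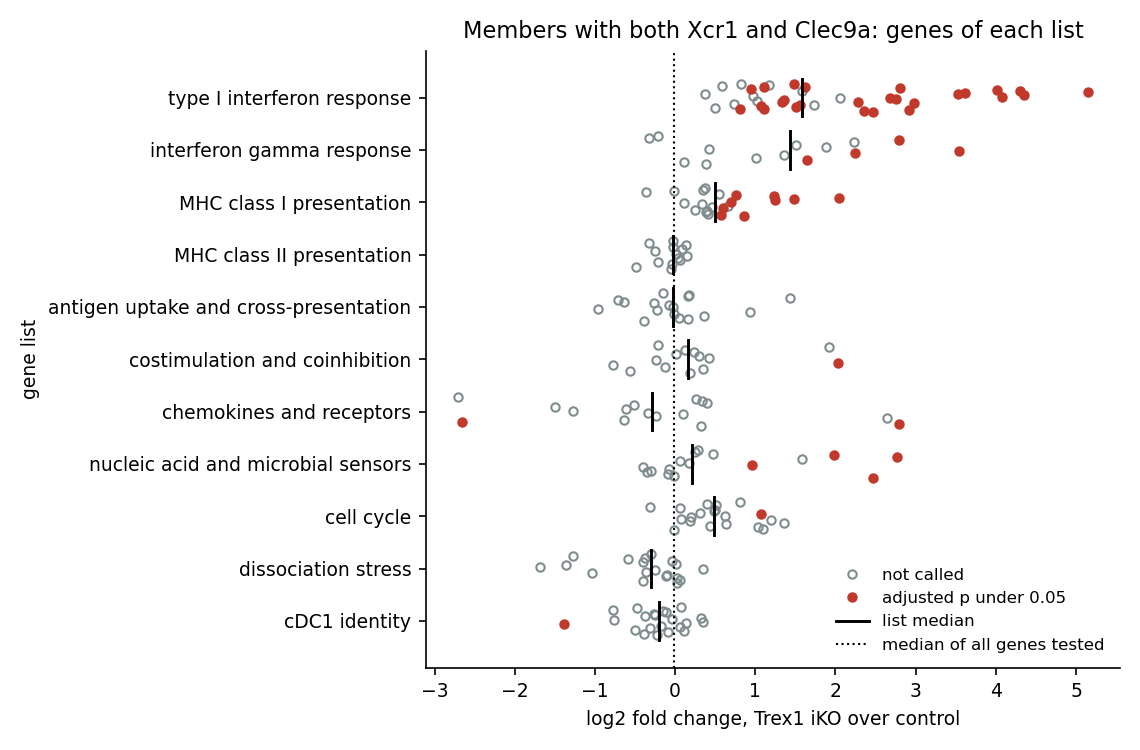
Log2 fold change (horizontal axis, iKO over control) of each tested gene in 11 gene lists, for members with both Xcr1 and Clec9a; filled points passed edgeR's adjusted p of 0.05 and black bars are list medians. The type I interferon list has 26 of its 37 genes filled and a median of 1.58, and the MHC class II list has none filled and a median of -0.02.

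Chemokines, sensors and genes of survival and division were read in the same way. Cxcl9, the ligand of Cxcr3 that draws T cells, was at 221, 547, 89.7 and 163 CPM in iKO and 46.8, 55.9, 12.9 and 48.3 CPM in control in members with both genes, a log2 fold change of 2.80 ± 0.52 (SE, edgeR adjusted p = 0.0118). Over all members it was -0.59 ± 0.83 (adjusted p = 0.801). In control, the macrophage-marker members held 2889 CPM of it and strict members 37.7, and in iKO 1074 and 285. Cxcl9 was the exception in this respect: the other 96 of the 97 genes called higher in members with both genes had log2 fold changes above 0 in all members too. Cxcl10, the other ligand, gave 2.65 ± 0.70 (edgeR adjusted p = 0.0701) in members with both genes.

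Among sensors of nucleic acid, 4 of 16 tested rose in members with both genes. These were Ifi204 (2.76 log2) and Ifi203 (1.99), DNA-binding PYHIN genes, Zbp1 (2.46), a sensor of left-handed nucleic acid, and Samhd1 (0.96), a nucleotide phosphohydrolase. Cgas itself was at 31.9, 35.7, 41.7 and 56.2 CPM in iKO and 42.4, 34.2, 25.8 and 21.6 CPM in control, and did not pass (edgeR adjusted p = 0.438); Sting1 gave -0.40 ± 0.17 (adjusted p = 0.27). Of survival and death genes, Casp4 (1.73), Casp1 (1.23) and Bax (0.59) rose and the pro-apoptotic Bcl2l11 (-1.25) fell, 4 of 13 tested. Of co-signalling genes only Lgals9, galectin-9, passed (2.04), 1 of 14. Of antigen uptake genes 0 of 17 passed, and 1 of 21 (Rac2) in all members. None of 15 cytokine and receptor genes, 17 transcription factors and 19 dissociation-stress genes passed, and for stress genes the median was -0.30. Mcm5, of the replication helicase, was 1 of 20 cell-cycle genes that passed (1.07), with 18 of the 20 above 0 and a median log2 fold change of 0.49. In all members the cell-cycle list had a median of 0.05 and 0 of 22 called.

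Of 22 cDC1 identity genes tested, 0 were called in all members, where 4 lay above 0, 7 had an unadjusted p under 0.05 and the median log2 fold change was -0.29. Over all 7236 genes of that edgeR fit, 3538 lay above 0, 1070 had an unadjusted p under 0.05 and the median was -0.01. In members with both genes 1 fell, and in strict members 3 fell, beside 0.657% and 0.897% of all genes. The gene that fell in both sets was Plet1, an epithelial surface protein made by cDC1 here: 87.2, 63.0, 54.2 and 138 CPM in iKO and 165, 149, 234 and 332 CPM in control (-1.38 ± 0.29 log2, SE, edgeR adjusted p = 0.0215), a call lost without any of 5 single samples. In strict members Itgae (-0.79) and Cadm1 (-0.88), an adhesion molecule of cDC1, were the other falls. Wdfy4 read 416, 321, 423 and 491 CPM in iKO and 531, 671, 485 and 481 CPM in control of the both-gene set, overlapping, with a log2 fold change of -0.39 ± 0.15 (edgeR adjusted p = 0.24). Naaa (0.13 ± 0.12, adjusted p = 0.646), Irf8 (-0.04 ± 0.12, 0.901) and Batf3 (0.08 ± 0.16, 0.863) were near 0.

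To see whether this response was shared with other dendritic cells, a cDC2 set was taken from the same samples: at least 2 UMIs of Cd209a and none of Xcr1, Clec9a, Cd3e or Cd79a. It held 15, 22, 21 and 41 barcodes in iKO samples 1 to 4 and 28, 43, 63 and 65 in control. The genotype test called 8 of 6108 genes there (0.131%), 2 higher (0.0327%, Ifi27l2a and Gzmb) and 6 lower (0.0982%), of which Rps10 and S100a9 are also described above. Its type I interferon list had 1 of 41 called, with a median of 1.65. Ifi27l2a was at 3849, 5108, 1641 and 2599 CPM in the iKO samples of this set and 1095, 618, 783 and 710.4 CPM in control (2.04 ± 0.30 log2, SE, edgeR adjusted p = 0.0266), beside 2.02 ± 0.31 in the members. Irf7 gave 3.09 ± 0.52 (edgeR adjusted p = 0.0555) in the cDC2 set, from 81.8, 45.0, 50.3 and 45.5 CPM in control to 627, 875, 127 and 244 in iKO. Isg15 in the cDC2 set was at 2375, 2193, 323 and 395 CPM in iKO and 446, 117, 247 and 229.9 CPM in control, so iKO samples 1 and 2 were far above iKO samples 3 and 4.

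The difference of the genotype effect between members and the cDC2 set was tested as an interaction over 7556 genes, and none passed (0%). At an unadjusted edgeR p under 0.05 there were 385 of 7557 genes, Cd209a included. That is close to the share of 0.05 that this threshold passes when no gene differs. DESeq2 called 2 genes. The smallest p belonged to Ctsl, the lysosomal protease cathepsin L, with a log2 fold change of 1.02 in members and -0.76 in the cDC2 set, a difference of 1.96 ± 0.31 (SE, edgeR adjusted p = 0.187). Pltp was next, with 2.21 and -0.32, a difference of 2.62 ± 0.48 (SE, edgeR adjusted p = 0.225), followed by Lair1 with 1.25 and -0.05, a difference of 1.28 ± 0.23 (adjusted p = 0.225). Plaur, the urokinase receptor gene, had a difference of 1.52, which became -0.09 when both genes were required. The remaining 6 of the 10 smallest were Cd33, Fyb, Lrrk2, Rac2, Gadd45b and Ly6d.

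Set against cDC2 of the same samples, the members were higher in cDC1 identity and MHC class I genes and lower in cDC2 markers and MHC class II genes. With the sample as a block, 771 of 6636 genes were higher in members (11.6%) and 865 lower (13%). Both sets were drawn from the same counts, so genes that go with Xcr1, Clec9a or Cd209a had to differ, and the values describe the sets. The identity list had 20 of 22 higher and 1 lower (Itgax), and of 10 cDC2 markers 9 were lower and 1 (Fcrla) higher. Irf8 stood at 1376 ± 164 CPM in members and 104 ± 55.8 CPM in cDC2 (SD, n = 8), and Batf3 at 159 ± 17.9 and 36.1 ± 15.1. Wdfy4, at 371 ± 99.2 and 72.9 ± 20.8, and Naaa, at 1147 ± 98.1 and 296 ± 95.0, were higher in members in 8 of 8 samples. Tlr3, which senses double-stranded RNA in endosomes, was at 121 ± 36.9 and 6.20 ± 5.41 CPM, and Cxcr3, the receptor of Cxcl9, at 40.2 ± 14.8 and 0.752 ± 1.18.

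Among the 10 largest by fold, Gcsam (88.5 ± 26.5 CPM), Snx22 (48.5 ± 11.1), Gpr141b (48.8 ± 24.1), Plpp1 (39.6 ± 16.0) and Gm43914 (44.4 ± 9.21) were below 0.50 CPM on average in the cDC2 set. Agpat3, Itgae, Cadm1 and Fcrla made up the rest with Cxcr3. Among the 10 largest falls were Timp1, a protease inhibitor, at 6.94 ± 6.11 CPM against 105 ± 59.0, Cdh1 (E-cadherin) at 6.84 ± 4.40 against 89.0 ± 19.8, and the lectin Clec10a at 51.3 ± 26.6 against 444 ± 148. S100a4 was at 475 ± 196 against 3141 ± 491 CPM and Tnfsf9 (4-1BB ligand) at 30.1 ± 13.1 against 221 ± 94.2. The transcription factor Irf4, which marks cDC2, was at 2.77 ± 2.16 against 28.4 ± 8.33 CPM.

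Antigen presentation split by class between the sets. Of 22 MHC class I genes 12 were higher in members and 0 lower, such as Psmb9 at 769 ± 134 against 351 ± 156 CPM and Tap1 at 344 ± 51.2 against 205 ± 96.2. Of 14 MHC class II genes 8 were lower and 1 (Marchf1) higher, with Cd74 at 19671 ± 1435 against 24250.5 ± 2519. The type I interferon list had 3 higher, among them Stat2 and Phf11b, and 11 lower of 43, with Ifi27l2a at 1236 ± 1022 against 2037 ± 1654 CPM over both genotypes. Mcm2, Mcm3, Mcm5, Mcm6 and H2az1 were higher, 5 of 21 cell-cycle genes. Siglech, Ccr9, Cox6a2 and Lag3 of the pDC list were higher also, 4 of 7. Of 11 macrophage genes 2 were higher (Apoe and Ms4a7) and 3 lower (Mrc1, Fcgr1 and Csf1r). These values are of all members, among them the 31 pDC-marker and 49 macrophage-marker ones.

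The mature set (at least 1 UMI of Ccr7 and 2 of Fscn1, fewer than 2 of Xcr1 and Clec9a together, 429 barcodes) differed more widely. In this comparison 63.6% of genes were called, 2075 of 6479 genes were higher in members (32%) and 2046 lower (31.6%), between sets gated on the same counts. Wdfy4 was at 351 ± 92.2 CPM in members and 9.86 ± 3.30 in the mature set, and Naaa at 1087 ± 92.9 and 28.7 ± 20.3. Batf3, at 151 ± 16.1 and 255 ± 41.3 CPM, and Flt3, the cytokine receptor of dendritic cell growth, at 120.0 ± 29.7 and 152 ± 22.1, were lower in members in 8 of 8 samples, and Irf8 was higher in 6 of 8.

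All 13 tested markers of mature dendritic cells were lower in the members, Ccl22 at 33.7 ± 39.4 CPM against 755 ± 352 and Relb, an NF-kB subunit, at 49.2 ± 16.1 against 604 ± 118. Ccl5 (RANTES) was at 266 ± 449 against 8564 ± 3167 CPM and Socs2, a suppressor of cytokine signalling, at 8.14 ± 7.42 against 599 ± 75.5. Of 16 co-signalling genes 5 were higher (Cd48, Lgals9, Vsir, Slamf7 and Slamf8) and 11 lower, among them Cd274 (PD-L1), at 64.1 ± 34.7 against 360.3 ± 67.6, and Cd86, at 165 ± 36.1 against 302 ± 146. Of 14 MHC class II genes 10 were higher in members and 2 lower, while of 22 class I genes 3 were higher and 15 lower. The type I interferon list split, with 13 of 40 higher, such as Irf7 and Bst2, and 10 lower, such as Isg15. The members here include the pDC-marker ones, where Bst2 was highest, and their part in these differences was not tested. Of 16 cell-cycle genes 14 were higher, among them Mki67, a marker of dividing cells, at 85.1 ± 35.5 against 23.6 ± 16.6 CPM.

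**Figure D5:**
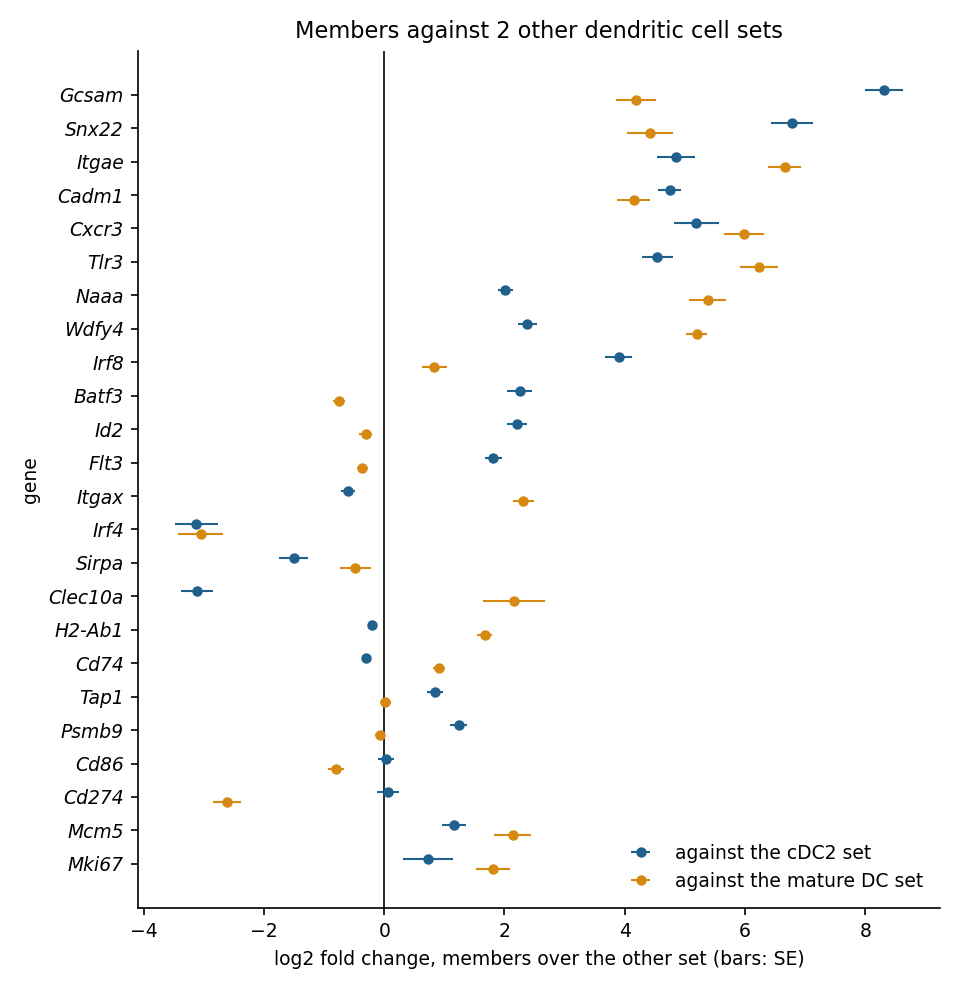
Log2 fold change (horizontal axis, members over the other set, bars are SE) of 24 genes against the cDC2 set (blue) and the mature set (orange), with the sample as a block. Gcsam, Snx22, Itgae and Tlr3 lie above 4 in both comparisons, while Batf3 and Flt3 lie above 0 against cDC2 and below 0 against the mature set.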

How the data were processed

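Single-cell 3' RNA libraries of 8 hashtagged samples (4 per genotype, 2 pools) were used as the UMI counts per gene and barcode that the authors deposited, made with Cell Ranger 7.1.0 on GRCm39 per the submitters' processing notes. Barcodes were kept with at least 300 genes and at most 10% mitochondrial counts. UMIs of the members were summed per sample and tested with edgeR 4.0.16 (TMM scaling, filterByExpr, quasi-likelihood test, Benjamini-Hochberg adjustment, threshold 0.05) in R 4.3.3. A standard error is the size of the log2 fold change divided by the square root of F, and CPM of tested genes use TMM factors. Single values were compared with exact permutation tests. Doublets were scored with Scrublet (scanpy 1.11.5), and 5 members scored above 0.25 and were kept. Intervals and limits for counts of 0 (3 counts) cover counting error only.

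The members and the 23 gene lists were chosen with earlier results of these data known. Named genes were those called, with groups that did not overlap and a mean of at least 20 CPM, the 15 largest rises and the 10 largest falls; for sets of cells the 10 largest each way; for the interaction the 10 smallest p; and members of the lists. Alternatives were DESeq2 1.42.0, no low-count filter, other minimum counts of the rule genes or of members per sample, doublets left out, thinning to 3000 UMIs, each sample left out and the replicate number as a block. Leaving out pDC-marker or macrophage-marker members and the strict members were added after the data were seen. Same-numbered samples of the genotypes shared only a number. In simulated counts with 200 changed genes, the genotype test recovered 46.5% of 2-fold changes (7064 genes, 4.12% of calls false) and 89.5% of 4-fold changes (7015 genes, 5.29% false). The changed genes were drawn at random from all tested genes, so these shares do not give the recovery for interferon-response genes.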

Additional observations from a re-analysis of the deposited data

Results flagged for a closer look

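Of 104 groups of 4 samples looked at, 5 held a sample that stood apart from the other 3 of its group, and chance would give about 1 in 20 groups. All 5 were control samples in the members with both Xcr1 and Clec9a. Ifi44 was at 15.6 CPM in control 1, where the other control samples had 1.27 to 3.11. Rsad2 was at 15.5 CPM in control 3 (others 0 to 2.23). Usp18 was at 3.82 CPM in control 4, below the 16.4 to 18.6 of the others. Pf4 was at 235 CPM in control 4 (others 22.3 to 35.3), and S100a9 at 427 CPM in control 3 (others 90.3 to 99.4). All 5 values lay on the same side of the iKO samples as the rest of their group. That was fixed beforehand, since only genes whose groups did not overlap were named.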

How the results depend on the processing

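The difference in the share of members (iKO minus control, -0.0822 percentage points) turned positive as a share of the dendritic cell sets (10.3), without macrophage-marker members (0.0192) and without iKO 2 or control 3; leaving out 1 sample gave -0.220 to 0.0172. None of these alternatives passed the exact test. The count of 26 genes called for genotype in members was 116 with DESeq2, 262 with no low-count filter, 122 with at least 3 UMIs of the rule genes, 137 with both genes, 10 after thinning, 52 without the Ccr7 and Fscn1 members, 1 without pDC-marker members, 115 without macrophage-marker members, 162 in strict members and 121 with the replicate block, and 3 to 69 with 1 sample left out. Same-numbered samples had correlated deviations of 0.149, 0.0925, 0.280 and -0.0287, so the numbers were not taken to pair them. In members with both genes the count ran from 49 to 148 with 1 sample left out. For the type I interferon list the 5 calls became 17 with DESeq2, 37 with no filter, 25 with at least 3 UMIs, 26 with both genes, 2 after thinning, 0 without pDC-marker members, 13 without macrophage-marker members, 24 in strict members and 29 with the block, and 0 to 13 with 1 sample left out. For MHC class I the 0 calls became 6, 8, 6, 9 and 2 under the same first 5 alternatives, 2 without the Ccr7 and Fscn1 members, 4 without macrophage-marker members, 8 in strict members and 6 with the block, and 0 to 4 with 1 sample left out. After thinning, which leaves fewer UMIs, the calls against cDC2 were 306 and against mature cells 1152. With 1 sample left out they ran from 1337 to 1664 and from 3756 to 4089. Calls against cDC2 were 1610 without pDC-marker members, 1981 with both genes and 1950 in strict members. The rule genes of the other sets were not taken out of these counts. The interaction gave 2 calls with DESeq2, 91 with no filter and 0 to 2 with 1 sample left out. The Plaur interaction turned to -0.094 with both genes and -0.55 in strict members. The causes were not tested. The 22 genes named for genotype kept their direction in 292 of 292 comparisons with alternatives, 43 of which missed the threshold. The alternatives on the minimum of members per sample kept every sample, so they repeated the main fit. Each of them makes up 22 of the 292 comparisons, with an outcome fixed beforehand. With 1 sample left out the direction was kept in 176 of 176 comparisons, 98 of which missed the threshold.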
